A study of Mus musculus with 12 samples.

Results

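Libraries made from 1/2 of a mouse oocyte were compared with libraries made from whole oocytes, all amplified for 18 cycles. The members are the 2 libraries labelled as 1/2 and the 2 labelled as whole oocytes with 18 cycles, which were chosen by their labels and make up 4 of the 12 libraries of the series. In the study, the fractions of an oocyte served to show how normalization on spike-in RNA works. It used 8 fully grown oocytes, 6 of them for whole-oocyte libraries at 10, 14 and 18 cycles and 2 for fractions of an oocyte. Both groups came from a healthy B6D2F1 female aged 12 weeks, for which the methods name no treatment. The oocytes were at the germinal vesicle (GV) stage, arrested with an intact nuclear envelope, when they were taken in M2 medium with milrinone. Oocytes were lysed singly in RLT Plus, and for the 1/2 libraries the lysate was diluted 1:2. A fixed amount of ERCC (External RNA Controls Consortium) spike-in RNA was added to each sample after dilution. Poly(A) RNA was then captured with oligo(dT) beads, amplified, made into Nextera libraries and sequenced on an Illumina HiSeq. Neither the labels nor the methods say which fraction came from which oocyte, so the 1/2 libraries may share an oocyte with the 1/4 and 1/8 libraries, but not with the whole oocytes. The whole-oocyte replicates come from different oocytes, while both 1/2 libraries may come from the same oocyte, so whether they are biological or technical replicates is not known. With 2 libraries in each group these sources of spread cannot be told apart.

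A fully grown GV oocyte holds a large store of maternal mRNA, much of which is kept translationally repressed until meiosis resumes. The paper describes populations of fully grown oocytes that differ in how active their transcription is. The labels do not say to which of them these oocytes belonged. Stored transcripts are removed, or held back from translation, by factors that bind them, such as deadenylases and storage proteins. Gene counts set against a spike-in added in a fixed amount are meant to show the amount of captured poly(A) RNA in a sample. Scaling on the genes themselves compares only the composition of the transcript pool.

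The authors deposited raw read counts per gene and per ERCC molecule. The whole oocytes had 3017069 and 1706478 counts on genes, and the 1/2 libraries had 4024670 and 3598549. The 1/2 libraries were thus sequenced deeper than both whole oocytes. Genes with 1 or more counts numbered 17017 and 14918 in the whole oocytes and 16794 and 16930 in the 1/2 libraries. After random thinning of all 4 libraries to 1706478 counts, 15838 and 14918 genes were detected in the whole oocytes and 15183 and 15416 in the 1/2 libraries, and the groups overlapped. At that depth, 10333 genes had at least 5 counts in both 1/2 libraries and 10167 in both whole oocytes. The 9578 genes shared by the groups were 92.7% of the first set and 94.2% of the second. Only 6 genes had at least 5 counts in both 1/2 libraries and 0 in both whole oocytes, and 7 genes had the reverse pattern.

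The identity of the material was checked with 14 genes that define oocytes, among them the egg coat genes Zp1, Zp2 and Zp3. All 14 were detected in all 4 libraries, with a summed level of 13814 and 12356 counts per 1000000 gene counts (CPM) in the whole oocytes and 19855 and 16559 CPM in the 1/2 libraries. Among them Zar1 had the most counts. Their median log2 fold change by median ratio scaling was 0.30 against the whole oocytes at 18 cycles and -1.01 against those at 10 cycles, a change of sign. It was 0.09 without the second whole oocyte and 0.13 without the first 1/2 library. Markers of granulosa and cumulus cells, which surround the oocyte in the follicle, had few counts apart from Serpine2. Their 19 genes summed to 477 and 462 CPM in the whole oocytes and to 396 and 376 CPM in the 1/2 libraries, and Serpine2 alone had 1176 and 737 counts in the whole oocytes and 1453 and 1234 in the 1/2 libraries. Of these 19 genes, 5 and 9 had 0 counts in the whole oocytes and 10 had 0 counts in each 1/2 library. The follicle-stimulating hormone receptor gene Fshr had 0 and 1 counts in the whole oocytes and 0 in both 1/2 libraries. The luteinizing hormone receptor gene Lhcgr had 0 counts in all 4. Markers of theca, stroma and blood, 14 genes led by Pecam1, summed to 10.9 and 12.3 CPM in the whole oocytes and to 13.2 and 13.9 CPM in the 1/2 libraries, and 10, 11, 9 and 12 of them had 0 counts in these 4 libraries. A count of 0 allows up to 3 counts, and this limit, like the Wilson intervals given here, covers counting error only, since amplified reads without molecular identifiers are not independent molecules.

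The whole oocytes at 18 cycles stood apart from the whole oocytes at 10 and 14 cycles. Across the 14788 genes tested, their log10(CPM + 1) values correlated with those of the other whole oocytes at r from 0.845 to 0.875, whereas the libraries at 10 cycles correlated with those at 14 cycles at 0.975 to 0.984. Genes are not independent replicates, and these values are descriptions. The 1/2 libraries correlated at 0.962 with each other, at 0.938 to 0.953 with the whole oocytes at 18 cycles, and at 0.886 to 0.910 with the whole oocytes at 10 cycles. The 1/2 libraries were thus closer to the whole oocytes at 18 cycles than to those at 10. The 1/4 libraries, also at 18 cycles, were at 0.931 to 0.948 with the whole oocytes at 18 cycles and 0.898 to 0.925 with those at 10. The 1/8 libraries, also at 18 cycles, went the other way, at 0.839 to 0.892 and 0.946 to 0.959. Not all libraries thus grouped by cycle number, and the 1/8 libraries were the exception. Genes with a GC content above 55% took 26.4% and 25.9% of gene counts in whole oocytes at 18 cycles, 25.8% and 24.01% in the 1/2 libraries, and 14.95% and 14.4% in whole oocytes at 10 cycles. Because of this, values relative to the whole oocytes at 10 or 14 cycles are given beside many of those at 18 cycles. In those comparisons the cycle number and the amount of material cannot be told apart.

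The amount of captured poly(A) RNA was read from the gene counts per ERCC count, which fall as this RNA falls against a fixed spike-in. The whole oocytes had 1611 and 1474 ERCC counts, and the 1/2 libraries had 9167 and 10467. The ERCC share of gene and ERCC counts was 0.0534% (95% Wilson interval 0.0508% to 0.0560%) and 0.0863% (0.0820% to 0.0908%) in the whole oocytes. It was 0.227% (0.223% to 0.232%) and 0.290% (0.285% to 0.296%) in the 1/2 libraries, and the groups did not overlap. The resulting ratios were 1873 and 1158 gene counts per ERCC count in the whole oocytes and 439 and 344 in the 1/2 libraries. The mean ± SD was 1515 ± 506 (n = 2) against 391 ± 67.3 (n = 2), and the geometric mean of the 1/2 libraries was 26.4% of that of the whole oocytes, where the dilution sets 50%. The 4 pairings of a 1/2 library with a whole oocyte gave 18.4%, 23.4%, 29.7% and 37.9%, all below 50%. An exact two-sided permutation test on the log2 ratios gave p = 0.33, the smallest that 2 against 2 libraries allow. Without the first whole oocyte the value was 33.6%, and without the second it was 20.8%.

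The distance from the dilution depended on which whole oocytes served as the reference. The whole oocytes at 10 cycles had 323 and 360 gene counts per ERCC count, and those at 14 cycles had 347 and 354. These values lie within or close to the range of the 1/2 libraries, which had 114% of the geometric mean at 10 cycles and 111% of that at 14 cycles. The 1/4 libraries had ratios of 214 and 174 and the 1/8 libraries 49.3 and 46.5, so the 1/2 libraries were the highest of the fractions. The cause of the high ratios in the whole oocytes at 18 cycles was not tested.

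**Figure D1:**
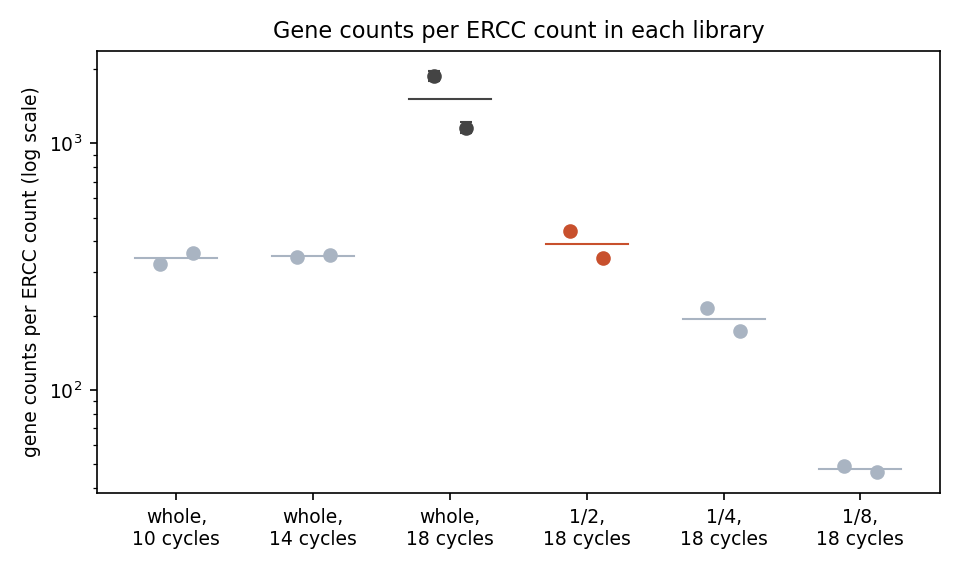
Gene counts per ERCC count (log scale) in each of the 12 libraries, by group, with 1 point per library and its 95% Wilson interval. The 1/2 libraries, at 439 and 344, lie below the whole oocytes at 18 cycles, at 1873 and 1158, and near the whole oocytes at 10 cycles, at 323 and 360.

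The difference in ERCC share was seen for each ERCC molecule with enough counts. Of the 92 molecules in the mix, 30 were detected in each whole oocyte and 45 and 41 in the 1/2 libraries. Over both libraries of a group, 48 were detected in the 1/2 libraries and 34 in the whole oocytes. For 16 molecules counts were found in the 1/2 libraries alone, and for 2 in the whole oocytes alone. Detection here was not thinned to equal ERCC counts, which were 9167 and 10467 in the 1/2 libraries and 1611 and 1474 in the whole oocytes. The molecule with the most counts, ERCC-00002, had 491 and 421 counts in the whole oocytes and 2388 and 2925 in the 1/2 libraries. Relative to the gene counts of each library, in CPM, this was 163 and 247 against 593 and 813, a ratio of 3.43. Among the 10 molecules with at least 10 counts in all 4 libraries, all 10 were higher in CPM in the 1/2 libraries, with a median ratio of 3.79. The smallest ratio was 2.62, for ERCC-00171, at 10.3 and 27.5 CPM in the whole oocytes and 35.0 and 63.9 in the 1/2 libraries. The largest was 4.82, for ERCC-00113, at 41.8 and 70.9 against 295 and 248. Across this range, molecules showed more spike-in per gene count in the 1/2 libraries.

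Differential abundance was then tested in a fit of the 8 libraries at 18 cycles with edgeR (quasi-likelihood test, Benjamini-Hochberg adjustment), with the threshold at an adjusted p of 0.01. Testing covered the 14788 genes that reached 5 counts in 2 or more of the 8 libraries. With ERCC size factors, 7697 genes (52.0% of those tested) had a lower level in the 1/2 libraries. By edgeR 0 were higher, with 0 genes higher at an unadjusted p under 0.05 and 0 by DESeq2. The median log2 fold change was -1.997, so that the median gene kept 25.1% of its level in whole oocytes, where the dilution alone would set -1 on this scale. The middle 50% of genes lay between -2.49 and -1.47, and 12953 genes (87.6%) lay below -1. The 528 genes (3.57%) above 0 included 0 with an unadjusted p under 0.05 by edgeR. Taken per library against the mean of the whole oocytes, the medians were 0.37 and -0.37 in the whole oocytes and -1.65 and -2.12 in the 1/2 libraries. Both 1/2 libraries lay below both whole oocytes, and the distance between the groups was larger than that between replicates. The share of genes called lower increased with abundance, from 5.44% in the lowest of 5 equal bins of CPM to 89.1% in the highest. A smaller amount of lysate and fewer transcripts per oocyte cannot be told apart on this scale.

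Leaving out a library changed the number of genes called on the ERCC scale by more than 1.5-fold in some cases. Without the second 1/2 library 1930 genes were lower, without the first 6111, without the first whole oocyte 3081 and without the second 8908. The median log2 fold change went from -2.34 without the second whole oocyte to -1.39 without the first, and remained below -1 in each case. With the whole oocytes at 10 cycles as the reference the median was -0.12 over the 18041 genes of that fit, with 384 genes lower and 1181 higher. With those at 14 cycles it was -0.16 over the same 18041 genes, with 466 lower and 1161 higher. Over the 14788 genes of the main fit these medians were 0.099 and 0.069, of the opposite sign.

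Scaling on all genes by the median ratio removes this shift and compares composition. On this scale the median log2 fold change was -0.01, and edgeR called 12 genes higher (0.0811% of those tested) and 6 lower (0.0406%) in the 1/2 libraries. At an unadjusted p under 0.05, 965 genes (6.53%) were higher and 978 (6.61%) lower. DESeq2 called 103 higher and 49 lower, among them all 12 and 4 of the 6. It gave Synpo and Gm43909, the rest of the 6, no adjusted p, with log2 fold changes of -2.66 and -3.13. With TMM scaling edgeR called 1 higher and 0 lower, with 1025 and 906 at an unadjusted p under 0.05. All 12 higher genes had both 1/2 libraries above both whole oocytes, and all 6 lower genes had both below. Across all genes tested, 20.99% were above and 20.5% below in this sense. In 1/4 and in 1/8 against the same whole oocytes, all 12 and all 6 had the same sign as in 1/2. Tex30 was at 1.76 and 2.55, Lrrc47 at -2.90 and -2.76 and Trim28 at -2.73 and -2.70. These comparisons share the whole oocytes, and the 18 genes were picked for their difference from them. Agreement in sign was therefore to be expected, and no conclusion is drawn from it. The calls depended on which libraries were used. Without the first 1/2 library edgeR called 0 genes, with 562 lower and 458 higher at an unadjusted p under 0.05. Without the second 1/2 library it called 24 higher and 2 lower, without the first whole oocyte 2 higher and 29 lower, and without the second 0 higher and 3 lower (907 and 936 at an unadjusted p under 0.05). DESeq2 was not run without a library. Of the 18 genes, 13 stayed past the threshold without the second 1/2 library, 6 without the first whole oocyte and 1 without the second. With a fit of only the 4 libraries compared, edgeR called 0 genes, with 817 higher and 846 lower at an unadjusted p under 0.05. Against the whole oocytes at 10 cycles, 1 of the 18 genes kept its call, 12 lost it and 5 changed sign, and against those at 14 cycles the numbers were 3, 10 and 5.

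**Figure D2:**
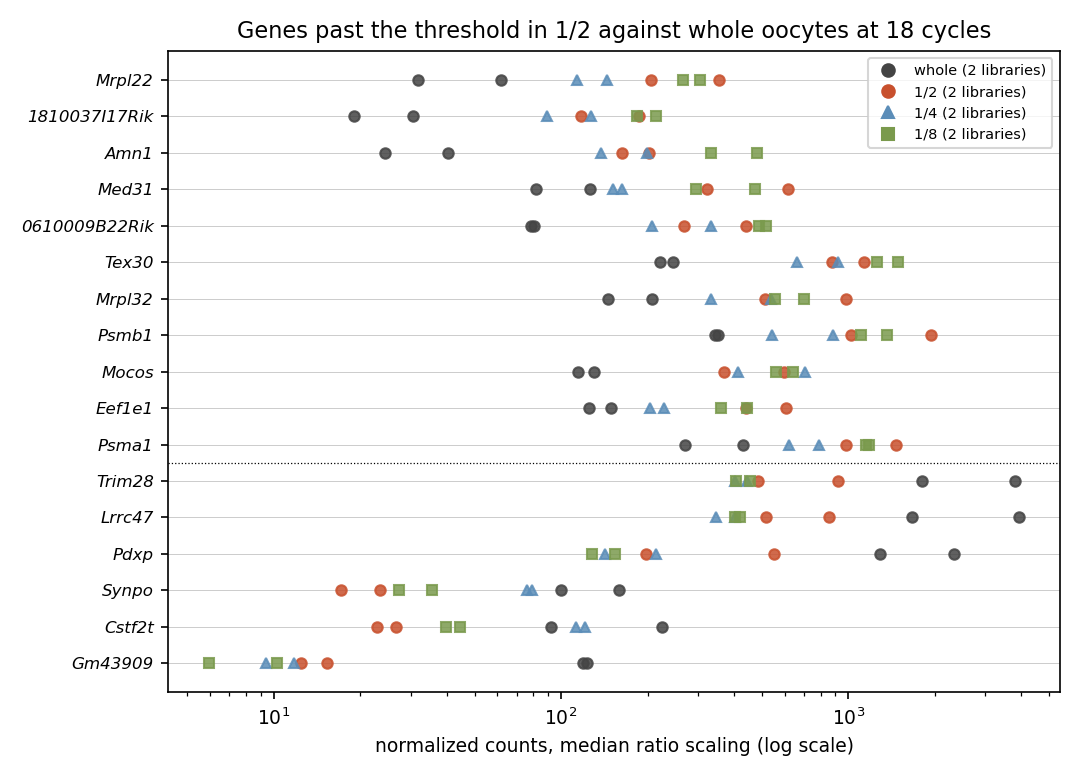
Normalized counts (median ratio scaling, log scale) of 17 of the 18 genes past the threshold, with 1 point per library for whole oocytes, 1/2, 1/4 and 1/8 at 18 cycles. For the 11 genes above the dotted line both 1/2 libraries lie above both whole oocytes, and for the 6 below it both lie under them.

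The gene with the smallest adjusted p was Tex30 (ENSMUSG00000026049, chr1:44086613-44102441 in GRCm38), a gene named for its expression in testis. It had 246 and 221 normalized counts in the whole oocytes and 1137 and 878 in the 1/2 libraries. Both 1/2 libraries were well above both whole oocytes, with a log2 fold change of 2.11 ± 0.30 (SE, adjusted p = 0.00630 by edgeR). Its exons overlap Gm29247 on the same strand, which makes its count uncertain. In CPM, Tex30 was at 320.2 and 348 in the whole oocytes at 10 cycles, above the 295.7 and 239 of the 1/2 libraries, while the whole oocytes at 18 cycles were at 66.6 and 54.5. Relative to 10 cycles its log2 fold change was -0.08, of the opposite sign.

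Among the higher genes were Mrpl22 and Mrpl32, of the mitochondrial ribosome, and Psmb1 and Psma1, of the proteasome. Mrpl22 (ENSMUSG00000020514, chr11:58171661-58179565), which encodes a protein of the large mitochondrial ribosomal subunit, had 31.8 and 61.8 normalized counts in the whole oocytes and 354 and 205 in the 1/2 libraries. The groups were far apart, and its log2 fold change of 2.64 ± 0.41 was the largest among the called genes that were higher (adjusted p = 0.00863 by edgeR). Mrpl32, a protein of the same subunit, had 145 and 207 against 985 and 511, with a log2 fold change of 2.10 ± 0.36. Psmb1 (ENSMUSG00000014769, chr17:15475021-15499751), a beta subunit of the proteasome core, had 352 and 344 normalized counts in the whole oocytes and 1936 and 1020.2 in the 1/2 libraries (2.09 ± 0.33). Psma1, an alpha subunit of the same core, had 430.2 and 271 against 1466 and 980.3 (1.79 ± 0.31). For these genes the first 1/2 library was the higher of the pair, by a wider margin than that between the whole oocytes for Psmb1. The adjusted p of Mrpl32, Psmb1 and Psma1 was 0.00863 by edgeR. Against 10 cycles Mrpl22, Mrpl32, Psmb1 and Psma1 were at 0.59, 0.77, 0.82 and 0.58.

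The other higher genes had varied functions. Amn1 (ENSMUSG00000068250), the mouse counterpart of a yeast gene of mitotic exit, had 24.4 and 40.4 normalized counts in the whole oocytes and 202 and 164 in the 1/2 libraries (log2 fold change 2.55 ± 0.40). In CPM the whole oocytes at 10 cycles had 74.2 and 75.3, above the 52.7 and 44.5 of the 1/2 libraries, and its fold change reversed to -0.38 against 10 cycles and to -0.62 against 14. Eef1e1, a member of the multi-tRNA synthetase complex, had 125 and 149.7 against 606 and 439.6 (1.94 ± 0.32). Med31, a subunit of the Mediator complex of RNA polymerase II, had 81.9 and 126 against 614 and 322 (2.20 ± 0.38), and it overlaps 4930563E22Rik on the other strand. Mocos, which sulfurates the molybdenum cofactor, had 115 and 131 against 597 and 369 (1.98 ± 0.34). The gene 0610009B22Rik had 80.7 and 78.4 against 439 and 269 (2.15 ± 0.35), and 1810037I17Rik had 30.6 and 19.0 against 186 and 118 (2.56 ± 0.43). Eef1e1, Med31, Mocos, 0610009B22Rik and 1810037I17Rik were at 0.92, 1.01, 0.26, 0.29 and 0.08 against 10 cycles. On the log2 scale the spread between the 1/2 libraries was smaller than their distance to the whole oocytes in each of these genes. On the ERCC scale these 12 genes were not among those called lower. Their levels there went from 85.5% of that in whole oocytes for Psma1, a log2 fold change of -0.23, to 171% for Mrpl22, at 0.78.

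Among the 6 lower genes, Trim28 (ENSMUSG00000005566, chr7:12999114-13031035) encodes a corepressor that works with KRAB zinc finger proteins and keeps imprints in the early embryo. It had 1808 and 3801 normalized counts in the whole oocytes and 485 and 919 in the 1/2 libraries. The whole oocytes differed by more than 2-fold, yet both lay above both 1/2 libraries, with a log2 fold change of -1.996 ± 0.35 (adjusted p = 0.00864 by edgeR). In CPM, Trim28 had 248 and 256 in the whole oocytes at 10 cycles, where its 1/2 values were 126 and 249.8, and against 14 cycles its log2 fold change was 0.64. Lrrc47 (ENSMUSG00000029028, chr4:154011731-154021513), a leucine-rich repeat gene, had 1663 and 3931 normalized counts against 518 and 855 (-2.03 ± 0.35), and its exons overlap Smim1 on the other strand. Pdxp, a phosphatase of pyridoxal phosphate and cofilin, had 1284.5 and 2333 against 198 and 551 (-2.27 ± 0.39), and it overlaps Gm49510. Relative to 10 cycles Lrrc47 had a log2 fold change of 0.16 and Pdxp of 1.10, both of the opposite sign. For Trim28, Lrrc47 and Pdxp the second whole oocyte was the highest of the 4 libraries and the first 1/2 library the lowest.

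The other lower genes had fewer counts. Cstf2t (ENSMUSG00000053536, chr19:31082837-31087069), an autosomal relative of the cleavage stimulation factor gene Cstf2 that acts in mRNA 3′ end formation in male germ cells, had 225 and 92.6 normalized counts in the whole oocytes and 22.9 and 26.6 in the 1/2 libraries (log2 fold change -2.70 ± 0.46). The 1/4 libraries had 121 and 113 and the 1/8 libraries 44.7 and 39.7, so the 1/8 libraries were low as well (-1.92, adjusted p = 0.00244 by edgeR). Synpo, which encodes an actin-associated protein, had 100.2 and 159 against 17.2 and 23.5 (-2.65 ± 0.47, adjusted p = 0.00935 by edgeR), while the 1/4 libraries had 75.9 and 79.1 and the 1/8 libraries 27.3 and 35.7 (-2.06, adjusted p = 0.00191 by edgeR). Cstf2t and Synpo were at -1.21 and -1.76 against 10 cycles. Gm43909, a locus to be experimentally verified opposite Bhlhe41, had 123 and 119 against 12.4 and 15.3 (-3.12 ± 0.55, adjusted p = 0.00992 by edgeR). It was at 3.71 and 2.29 CPM in the whole oocytes at 10 cycles, 33.5 and 29.3 at 18 cycles and 3.23 and 4.17 in the 1/2 libraries (log2 fold change 0.53 against 10 cycles), so the whole oocytes at 18 cycles were the high ones, and its count cannot be told from that of Bhlhe41. On the ERCC scale all 6 lower genes were called lower, with log2 fold changes from -3.91 for Lrrc47 to -5.15 for Gm43909. The largest share left was 6.66%, for Lrrc47.

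The larger differences with at least 50 normalized counts and groups that did not overlap also included genes that missed the threshold by edgeR. Otx1, which encodes a homeobox factor, had 33.0 and 47.5 normalized counts in the whole oocytes and 224 and 169.7 in the 1/2 libraries (log2 fold change 2.32, adjusted p = 0.0126 by edgeR and 0.000206 by DESeq2). Rpa3, a subunit of the replication protein that binds single-stranded DNA, had 19.6 and 19.0 against 127 and 80.8 (2.42, adjusted p = 0.0151 by edgeR and 0.000594 by DESeq2), but its log2 fold change was -0.68 against 10 cycles. In both genes both 1/2 libraries were well above the whole oocytes. Among the genes with large negative values, some had a wide difference between the whole oocytes. Slc39a8, a zinc transporter, had 34.2 and 238 normalized counts in the whole oocytes and 10.5 and 5.11 in the 1/2 libraries (-4.04, adjusted p = 0.0985 by edgeR). Uqcrc1, of respiratory complex III, had 182 and 14.3 against 9.55 and 4.09 (-3.87, adjusted p = 0.0211 by edgeR). The anti-apoptotic gene Mcl1 had 148 and 54.6 against 9.55 and 19.4 (-2.83), and 2510039O18Rik had 91.7 and 149.7 against 3.82 and 29.6 (-2.84). In Slc39a8 and Uqcrc1 the whole oocytes differed by far more than the 1/2 libraries did. Uqcrc1, Mcl1 and 2510039O18Rik were at -2.004, -0.86 and -0.51 against 10 cycles.

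The called genes differed in length and base composition. The 12 higher genes had a median transcript length (longest annotated transcript) of 1281 bases and a median GC content of 47.1%, the 6 lower genes 3357 bases and 58.3%, and the 12335 protein-coding genes tested 3373 bases and 49.6%. The same was seen across the protein-coding genes. Split into 5 equal bins by length, the median log2 fold change (median ratio) went from 0.18 in the shortest to 0.02, -0.08, -0.11 and -0.15 in the longest. Genes with an unadjusted p under 0.05 were 352 higher and 110 lower in the shortest bin and 69 higher and 208 lower in the longest. Split by GC content, the medians went from 0.20 in the lowest bin through 0.02, -0.07 and -0.13 to -0.24 in the highest, with 261 higher and 60 lower in the lowest and 105 higher and 308 lower in the highest. Short genes with low GC content had a median of 0.34, and long genes with high GC content had -0.32. Short genes with high GC content were at -0.07 and long genes with low GC content at 0.03, so the medians differed along both properties. The ERCC scale gave medians of -1.79 in the shortest and -2.15 in the longest bin. Against the 1/4 libraries, the median of the 1/2 libraries went from 0.29 in the shortest bin to -0.23 in the longest, and with GC content from 0.03 to 0.00.

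**Figure D3:**
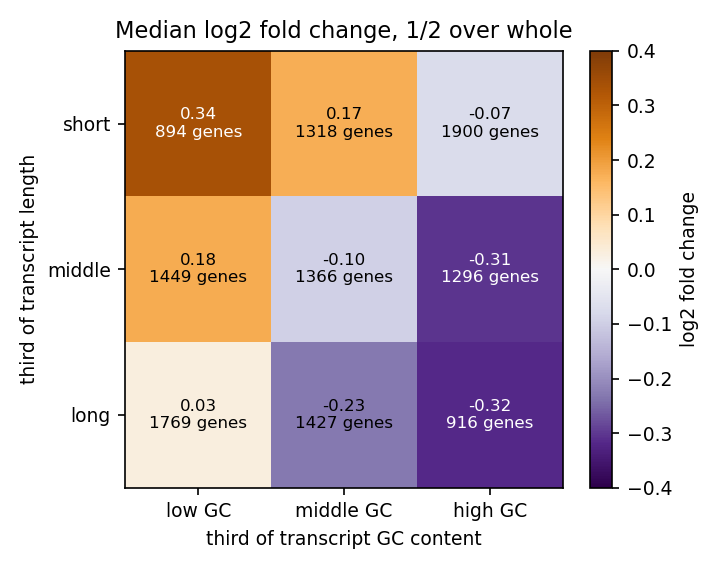
Median log2 fold change (1/2 against whole oocytes at 18 cycles, median ratio scaling) of protein-coding genes split into 3 equal bins each by transcript length and by GC content, with the number of genes in each cell. The median is 0.34 for short genes with low GC content and -0.32 for long genes with high GC content.

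The same lean appeared in the shares of counts. Genes under 1 kb took 4.91% and 5.03% of gene counts in the whole oocytes and 6.58% and 5.35% in the 1/2 libraries, whereas genes over 5 kb took 19.5% and 21.03% against 17.0% and 20.1%. For short genes both 1/2 libraries lay above the whole oocytes, and for genes over 5 kb the first lay below them and the second between them. The part of length in the differences of single genes was not tested. By gene type, the median log2 fold change was -0.04 for protein-coding genes, 0.06 for antisense genes, 0.27 for lincRNAs and 0.36 for processed pseudogenes.

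The spread between replicates was similar in both groups. In the lowest of 5 equal bins of CPM the median absolute log2 difference between replicates was 1.58 in the whole oocytes and 1.22 in the 1/2 libraries, and in the highest bin it was 0.29 and 0.32. The whole oocytes correlated at r = 0.947 across genes and the 1/2 libraries at 0.962. In each library, the 10 genes highest by count took 5.90% and 6.17% of gene counts in the whole oocytes and 7.43% and 8.01% in the 1/2 libraries.

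Among the 10 genes with the highest mean CPM were 3 on the lists of oocyte genes. Khdc3, a member of the subcortical maternal complex, had 55935 and 33958 normalized counts in the whole oocytes and 63200 and 47571 in the 1/2 libraries (log2 fold change 0.30). It shares exons with Gm20509, which was at 0.32, so the counts of both are uncertain. Zbed3, of the same complex, had 24478 and 49318 against 31532 and 31560 (-0.23, but 0.91 against 10 cycles). The third of these, Zar1, which stores maternal mRNA, had 19108 and 19459 against 23784 and 18099 (0.12), and Uchl1, a ubiquitin hydrolase, had 22342 and 12509 against 21660 and 16801 (0.14), with Uchl1os on its other strand. In these genes the groups overlapped. Khdc3, Gm20509, Zar1 and Uchl1 were at 2.71, 2.704, 2.22 and 1.28 against 10 cycles. CT010467.1, annotated as ribosomal RNA, had 13578 and 39662 against 43360 and 67465 (1.06, adjusted p = 0.167 by edgeR). It overlaps Gm42418 and AY036118, which were at 1.07 and 1.10, so that these 3 genes give a single uncertain value, which for CT010467.1 was 1.69 against 10 cycles. Parp12, an ADP-ribosyltransferase, had 15387 and 24390 against 7912 and 14202 (-0.85, adjusted p = 0.208 by edgeR). Cd164l2 had 13116 and 13252 against 10141 and 6688 (-0.65), and it overlaps Gpr3 on the other strand. Relative to 10 cycles Parp12 and Cd164l2 were each at 2.15, of the opposite sign.

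Genes of the egg coat and of fertilization were described from a list of 7 genes. Zp3, a glycoprotein of the egg coat, had 4821 and 3855 normalized counts in the whole oocytes and 6407 and 4789 in the 1/2 libraries (log2 fold change 0.37 ± 0.28, but -0.32 against 10 cycles). Zp2 had 4136 and 2366 against 2477 and 3551 (-0.11 ± 0.29, and -2.01 against 10 cycles), and Zp1 had 1793 and 1523 against 1827 and 1612 (0.05 ± 0.27, but -0.86 against 10 cycles). In all 3 egg coat genes the groups overlapped. Per kilobase of the longest transcript, Zp3 was the most abundant, at 854 CPM in whole oocytes at 18 cycles and 1122 in the 1/2 libraries. Zp2 followed at 313 and 295 and Zp1 at 218 and 231. Not divided by length, whole oocytes at 18 cycles had 1308 and 951 CPM for Zp3 and 1122 and 584 for Zp2. Whole oocytes at 10 cycles had 2460 and 1948 CPM for Zp3 and 4328 and 3306 for Zp2, so this order depended on the reference. Of the 7 genes, 3 had both 1/2 libraries above both whole oocytes (42.9%, beside 20.99% of all genes tested). Named after their values were seen, these were the sperm receptor gene Izumo1r (1.33), the tetraspanin gene Cd9 (1.03) and Oosp1 (0.66). The same 3 genes (42.9%) were higher at an unadjusted p under 0.05 by edgeR, beside 6.53% of all genes tested. The list median was 0.37 against the whole oocytes at 18 cycles and flipped to -1.48 and -1.71 against those at 10 and 14 cycles. By library it was 0.57 and 0.18 in the 1/2 libraries, with the whole oocytes at 0.16 and -0.16, so that the second was close to the first whole oocyte. It was 0.14 without the first 1/2 library and 0.21 without the second whole oocyte.

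The oocyte growth factors and the receptor Kit made a list of 5 genes with a median of -0.13, and of -0.91 and -1.01 against 10 and 14 cycles. Gdf9, which acts on granulosa cells, had 5923 and 6399 normalized counts in the whole oocytes and 8554 and 9108 in the 1/2 libraries (log2 fold change 0.52 ± 0.27, adjusted p = 0.416 by edgeR). The replicates were close and the groups did not overlap. Its partner Bmp15 had 3003 and 3454 against 2454 and 3458 (-0.13 ± 0.27), with overlap, and Fgf8 had 1476 and 3233 against 4716 and 2336 (0.59 ± 0.38). Bmp6 (-1.18), named after its values were seen, was the member with both 1/2 libraries below both whole oocytes, and Gdf9 the member with both above, each 20% of the list, beside 20.5% and 20.99% of all genes tested. Relative to 10 cycles Gdf9 was at -0.91, of the opposite sign, Bmp15 at -2.10 and Fgf8 at 3.77. Without the second 1/2 library the list median was -0.39, and without the first it was -0.01.

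The subcortical maternal complex, a multiprotein assembly under the oocyte membrane that the early embryo needs, was represented by 8 genes with a median of 0.16, which flipped to -0.94 and -1.11 against 10 and 14 cycles. Ooep had 2942 and 2767 normalized counts in the whole oocytes and 8813 and 5171 in the 1/2 libraries. The whole oocytes were nearly equal and both 1/2 libraries were above them, with a log2 fold change of 1.29 ± 0.31 that missed the threshold by edgeR (adjusted p = 0.0509) and passed it by DESeq2 (0.00296). In CPM, Ooep was at 2453 and 2637 in the whole oocytes at 10 cycles and at 2293 and 1406 in the 1/2 libraries, and its log2 fold change against 10 cycles was -0.22. The genes above both whole oocytes were Ooep and, named after its values were seen, Tle6 (0.66), which is 25% of the list, beside 20.99% of all genes tested. The per-library medians were -0.20 and 0.32 in the 1/2 libraries, on both sides of the whole oocytes at 0.06 and -0.06. Without the second 1/2 library the list median was -0.26, of the opposite sign. Compared with the 1/4 libraries the list was at -0.63.

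Among 13 oocyte transcription factors the median was 0.24. Foxo3, which holds primordial follicles in reserve, had 2876 and 2789 normalized counts against 1961 and 2961 (log2 fold change -0.20 ± 0.27, but 0.23 against 10 cycles). Sall4, a zinc finger factor, had 2124 and 1960 against 2695 and 2136.5 (0.24 ± 0.26), and Pou5f1, the pluripotency factor, had 1137 and 1242 against 1388 and 1094 (0.06 ± 0.28, and 1.42 against 10 cycles). Of these, Sall4 alone had groups that did not overlap. Sall4 and Pou5f1 share exons with Gm14261 and Gm19553 on the other strand, so their counts are uncertain. Beside Sall4, Sohlh2 (1.77) and Obox5 (0.54), both named after their values were seen, lay above both whole oocytes (23.1% of the list, beside 20.99% of all genes). In Sohlh2 the counts were few, at 12 and 3 in the whole oocytes and 47 and 33 in the 1/2 libraries. The list median was -0.01 without the first whole oocyte and 0.06 without the first 1/2 library, so its direction rested on single libraries.

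The meiotic cell cycle list held 25 regulators of arrest and maturation, with a median of 0.10 that flipped to -0.40 and -0.31 against 10 and 14 cycles and to -0.06 without the first whole oocyte. It was 0.00 without the second, 0.03 without the first 1/2 library and 0.03 without the second. Bub1b, of the spindle checkpoint, had 1651 and 2943 normalized counts against 2506 and 2339 (log2 fold change 0.08 ± 0.29). Mos, the kinase that keeps eggs in metaphase II, had 983 and 1437 against 2630.4 and 1346 (0.72 ± 0.34, but -1.05 against 10 cycles). In both genes the groups overlapped, and in Mos the first 1/2 library alone was high. Cdc25a, a phosphatase that activates Cdk1, had 1712 and 2858 against 1061 and 1399 (-0.89 ± 0.33, adjusted p = 0.220 by edgeR), without overlap. Above both whole oocytes were 4 genes (16.0%) and below both were 6 (24%), beside 20.99% and 20.5% of all genes tested. The higher 4 were Aurka (1.05), Mad2l1 (0.87), Fbxo43 (0.21) and Cdc14b (1.22), named after their values were seen. Relative to 14 cycles Cdc25a was at 1.72 and Bub1b at -0.96, both of the opposite sign.

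Factors that shorten poly(A) tails and remove mRNA made a list of 25 genes with a median of -0.21. Upf1, the helicase of nonsense-mediated decay, had 3029 and 7625 normalized counts in the whole oocytes and 1707 and 2421 in the 1/2 libraries. Both 1/2 libraries were below both whole oocytes, of which the second was the higher by far, and the log2 fold change was -1.37 ± 0.34 (adjusted p = 0.0597 by edgeR and 0.00696 by DESeq2). Cnot11, a subunit of the CCR4-NOT deadenylase, had 2788 and 5862 against 2199 and 2379 (-0.92 ± 0.31). Btg4, the adaptor that brings this deadenylase to maternal mRNA, had 1556 and 3347 against 3371 and 2879 (0.35 ± 0.33, but -0.61 against 10 cycles), with overlap. Below both whole oocytes were 9 of the 25 genes (36.0%) and above both were 4 (16.0%), which were Cnot4, Cnot10, Dcp1b and Xrn1, named after their values were seen. The shares for all genes tested were 20.5% and 20.99%. Without the second whole oocyte the list median was 0.02, and without any other library it lay between -0.24 and -0.07. Exons of Upf1 overlap Cers1 and Gdf1 on the other strand, so its count is uncertain. Relative to 14 cycles Upf1 was at 1.26 and Cnot11 at 1.86, both of the opposite sign.

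The RNA exosome, the 3′ to 5′ exonuclease complex, was represented by 11 genes with a median of 0.09. Exosc4 had 1722 and 819.5 normalized counts against 1261 and 750.3 (log2 fold change -0.34 ± 0.35), Exosc5 had 446 and 523 against 508 and 341 (-0.19 ± 0.32), and Exosc3 had 328 and 413 against 507 and 357 (0.23 ± 0.31). In all 3 the groups overlapped, and against 10 cycles they were at 2.11, 2.41 and 1.59. Their exons overlap Oplah, Tmem91 and Dcaf10 on the other strand, so their counts are uncertain. Above both whole oocytes were Exosc1 (0.98) and Exosc8 (0.35), and below were Exosc6 (-1.33) and Exosc10 (-0.52), all named after their values were seen and each pair 18.2% of the list, beside 20.99% above and 20.5% below for all genes tested. The list median was -0.07 without the second whole oocyte and -0.05 without the first 1/2 library, and it was 1.06 against the whole oocytes at 10 cycles.

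Genes of mRNA storage and translational repression, 18 in all, had a median of -0.18. Beside Zar1, the gene with the most counts was Cpeb1, which binds the cytoplasmic polyadenylation element, with 6485 and 6243 normalized counts in the whole oocytes and 3533 and 5017 in the 1/2 libraries (log2 fold change -0.57 ± 0.27, but 0.11 against 10 cycles). Its groups did not overlap. Lsm14b, a component of repressive RNA particles, had 3147 and 10105 against 2221 and 2945 (-1.36 ± 0.40, adjusted p = 0.104 by edgeR), but was at 0.19 against 14 cycles. Here the second whole oocyte was far above the other 3 libraries. Below both whole oocytes were 6 genes (33.3%), and above were 4 (22.2%), which were Dazl (0.96), Zar1l (0.59), Ybx1 (0.57) and Eif4e1b (0.29), named after their values were seen. For all genes tested these shares were 20.5% and 20.99%. Leaving out each of the 4 libraries in turn gave list medians from -0.33, without the second 1/2 library, to -0.01, without the first.

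The maternal chromatin and DNA methylation list of 21 genes had a median of -0.04, and of -0.68 and -0.62 against 10 and 14 cycles, and held Trim28, the only member called lower (4.76% of the list, beside 0.0406% of all genes tested). H1foo, the oocyte linker histone, had 3470 and 5007 normalized counts in the whole oocytes and 14944 and 8388 in the 1/2 libraries. Both 1/2 libraries were above both whole oocytes, with a log2 fold change of 1.46 ± 0.32 that missed the threshold by edgeR (adjusted p = 0.0346) and passed it by DESeq2 (0.00101). H1foo was at 0.18 and 0.01 against 10 and 14 cycles. Zfp57, a KRAB zinc finger protein that binds imprinted regions with Trim28, had 8037 and 4478 against 6764 and 6394 (0.07 ± 0.28), with overlap. Dnmt1, the maintenance methyltransferase, had 3905 and 4200 against 5717 and 4791 (0.38 ± 0.26, but -0.75 against 10 cycles). Above both whole oocytes were 6 of the 21 genes and below both were also 6, each 28.6%, beside 20.99% and 20.5% of all genes tested. The list median became 0.13 without the first whole oocyte, 0.03 without the first 1/2 library and 0.02 without the second, so it had no stable direction. Per kilobase, H1foo was the most abundant of these 3 in the 1/2 libraries at 2568 CPM, followed by Zfp57 at 462 and Dnmt1 at 189.

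Proteins of the cytoplasmic ribosome leaned upward in the 1/2 libraries. Of 79 genes, 75 were tested, with a median log2 fold change of 0.56 beside -0.01 for all genes tested. In 36 genes (48.0%) both 1/2 libraries were above both whole oocytes, and in 4 (5.33%) below, beside 20.99% and 20.5% of all genes. By edgeR 25 genes (33.3%) were higher and 1 (1.33%) lower at an unadjusted p under 0.05, beside 6.53% and 6.61% of all genes. Rplp1, of the ribosomal stalk, had 1162 and 874 normalized counts in the whole oocytes and 1529 and 1126 in the 1/2 libraries (0.38 ± 0.28), with overlap. Rpl8, a protein of the large subunit, went the other way, with 1792 and 1511 against 1294 and 809.6 (-0.65 ± 0.29), while against 10 cycles Rplp1 was at 1.84 and Rpl8 at 1.57. Rpl8, Rpl10a, Rpl21 and Rpl31, of which the last 3 were named after their values were seen, were the 4 below both whole oocytes. The list median was 0.91 in the first 1/2 library and 0.30 in the second, with the whole oocytes at 0.10 and -0.10, so that the first carried more of the difference. It was 0.27 without the first 1/2 library, 0.83 without the second, 0.84 without the first whole oocyte and 0.49 without the second, and 1.16 and 1.30 against 10 and 14 cycles. Many ribosomal protein genes have processed pseudogenes of like sequence, which makes the values of single genes uncertain. The median transcript length of the list was 1059 bases, and the part of length in this difference was not tested. On the ERCC scale the median was -1.37, or 38.7% left, and 21 of the 75 genes (28%) were called lower, beside 52.0% of all genes.

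Proteasome subunits showed the same lean in both 1/2 libraries. The 31 genes had a median log2 fold change of 0.72. In 20 genes (64.5%) both 1/2 libraries were above both whole oocytes, and in 2 below, which were Psmd3 and Psmd7, named after their values were seen (6.45%), beside 20.99% and 20.5% of all genes tested. By edgeR 2 of the 31 genes, Psmb1 and Psma1, were called higher, beside 0.0811% of all genes tested. At an unadjusted p under 0.05, 17 (54.8%) were higher and 0 lower, beside 6.53% and 6.61% of all genes. Psma7, with the most counts, had 3965 and 3706 normalized counts in the whole oocytes and 7968 and 5967 in the 1/2 libraries (0.86 ± 0.26, adjusted p = 0.126 by edgeR). Both whole oocytes were near each other and below both 1/2 libraries. Psmd8 had 2009 and 2050.0 against 2601 and 1633 (0.06 ± 0.28), and Psmb6 had 1797 and 1765 against 2337 and 1382 (0.06 ± 0.28), both with overlap. Psma7, Psmd8 and Psmb6 were at 1.80, 1.58 and 1.04 against 10 cycles. By library the median was 0.91 in the first 1/2 library and 0.58 in the second, with the whole oocytes at 0.05 and -0.05. It was 0.47 without the first 1/2 library, 0.90 without the second, 0.65 and 0.71 without the first and second whole oocyte, and 0.41 against both 10 and 14 cycles. On the ERCC scale it was -1.25, or 42.0% left, and 11 genes (35.5%) were called lower, beside 52.0% of all genes.

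Nuclear genes of oxidative phosphorylation, 70 in all, had a median of 0.59, and of 0.98 and 1.05 against 10 and 14 cycles, with most of the difference in the first 1/2 library. The list median was 0.90 in that library and 0.10 in the second, where the whole oocytes were at 0.13 and -0.13, and it was 0.06 without the first 1/2 library, 0.83 without the second and 0.35 without the second whole oocyte. In 28 genes (40%) both 1/2 libraries were above both whole oocytes, and in 11 (15.7%) below, beside 20.99% and 20.5% of all genes tested. At an unadjusted p under 0.05, 23 genes (32.9%) were higher and 2 (2.86%) lower by edgeR, with Uqcrc1 among the lower, beside 6.53% and 6.61% of all genes. Cox4i1, a subunit of cytochrome c oxidase, had 6006 and 6430.2 normalized counts against 6691 and 4278 (log2 fold change -0.18 ± 0.28). Atp5e, of ATP synthase, had 2882 and 3440 against 3486 and 2779 (-0.01 ± 0.31), and Uqcrq, of complex III, had 2292 and 1696 against 3529 and 2289 (0.54 ± 0.29). In all 3 the groups overlapped, and the first 1/2 library was the highest. Cox4i1, Atp5e and Uqcrq were at 1.57, 2.43 and 2.35 against 10 cycles. Exons of Cox4i1 overlap Emc8 on the other strand, so its count is uncertain. On the ERCC scale the median was -1.37, with 33 genes (47.1%) called lower, beside 52.0% of all genes.

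The 13 genes encoded by the mitochondrial genome gave few counts, of which 6 had 0 counts in all 4 libraries and 7 were tested. Mitochondrial genes took 0.0407% and 0.0665% of gene counts in the whole oocytes and 0.0358% and 0.0667% in the 1/2 libraries, with overlap. This list had a median of -0.46, which lay between -0.90 and 0.35 when each of the 4 libraries was left out in turn. It was 0.35 without the second whole oocyte and -0.11 without the first 1/2 library. The tested genes led by count were mt-Cytb, with 133 and 278 normalized counts against 224 and 274 (log2 fold change 0.30 ± 0.33), and mt-Co1, with 221 and 292 against 161 and 154 (-0.69 ± 0.32). For mt-Nd5 they were 79.4 and 166 against 82.1 and 121 (-0.25 ± 0.38). Of the 7 genes, mt-Co1 and, named after its values were seen, mt-Nd1 were below both whole oocytes (28.6%, beside 20.5% of all genes tested). Medians of -0.53 and 0.01 in the 1/2 libraries lay within the range of the whole oocytes, -0.53 to 0.53, so no difference from the whole oocytes at 18 cycles was detectable for this list. Against those at 10 and 14 cycles its median was -2.32 and -2.08, with mt-Co1 at -3.02 and -3.03, mt-Cytb at -2.08 and -2.08 and mt-Nd5 at -2.56 and -2.18. Exons of mt-Co1 and mt-Nd5 overlap mt-Ts1 and mt-Nd6 on the other strand, so their counts are uncertain.

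**Figure D4:**
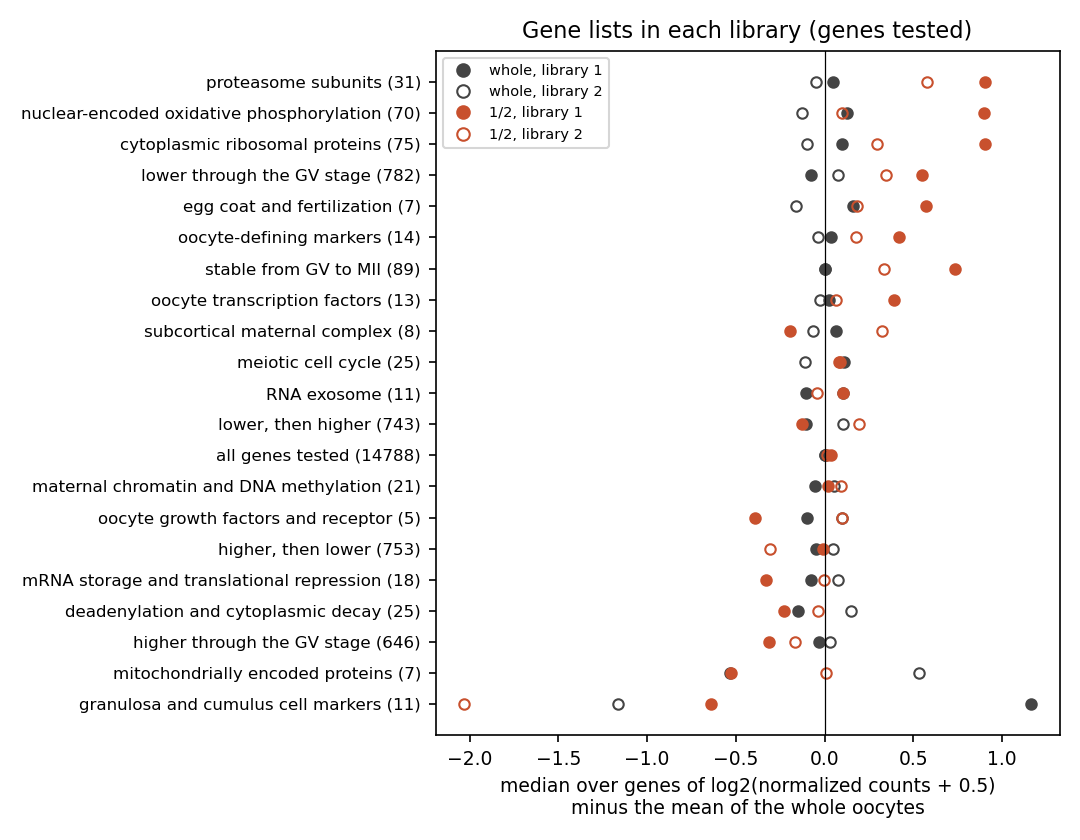
Median log2 level of each gene list in each library relative to the mean of the whole oocytes at 18 cycles (median ratio scaling), with 1 point per library. The proteasome list lies at 0.91 and 0.58 in the 1/2 libraries, and the oxidative phosphorylation list at 0.90 and 0.10.

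Granulosa and cumulus markers had a median log2 fold change of -2.54 over the 11 genes tested, or -1.10 with genes at 0 in a group set to the bound of 3 counts per library. The lower values came with the first whole oocyte. Inha, the inhibin alpha subunit, had 52 and 1 counts in the whole oocytes and 11 and 1 in the 1/2 libraries, and Cyp11a1, of steroid synthesis, had 31 and 3 against 3 and 1. Amh, a hormone of granulosa cells, had 20 and 1 against 0 and 0. These counts are too few for a fold change from the second whole oocyte. Serpine2 had 1437 and 1751 normalized counts against 1388 and 1261 (-0.27 ± 0.26), Nr5a2 had 72.1 and 59.4 against 73.5 and 53.2 (-0.06 ± 0.40), and Cyp19a1 had 22.0 and 30.9 against 34.4 and 51.1 (0.72 ± 0.46). Serpine2, Nr5a2 and Cyp19a1 were at 0.83, -1.07 and -1.17 against 10 cycles. Relative to the mean of the whole oocytes the list median was 1.17 and -1.17 in the whole oocytes and -0.64 and -2.03 in the 1/2 libraries. At an unadjusted p under 0.05, 4 genes (36.4% of the list) were lower by edgeR, beside 6.61% of all genes tested (Amh, Inha, Inhbb and Cyp11a1, named after their values were seen). Without the first whole oocyte the list median was -0.03, and without the first 1/2 library it was -1.45. The part of follicle cells in the other results was not tested. Of the theca, stroma and blood markers, Pecam1, an endothelial gene, and Star, of steroid transport, had enough counts to be tested, with a median of -0.23. It was -2.78 without the first 1/2 library and -0.35 without the second whole oocyte, but 0.30 without the first whole oocyte and 0.13 without the second 1/2 library. Pecam1 had 28.1 and 45.1 normalized counts against 36.3 and 50.1 (0.27 ± 0.48, but -1.68 against 10 cycles), Star had 8 and 1 counts against 8 and 0, and Col1a1 had 0 and 0 against 5 and 0.

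The study also sorts genes by how they change while GV oocytes progress, from other published single oocytes, into 4 classes by their direction from the early to the middle and from the middle to the late GV stage. Genes that rose in both steps, 646 of them tested, had a median of -0.27 in 1/2 against whole oocytes at 18 cycles but of 0.30 against those at 10 cycles, and 252 (39.0%) were below both whole oocytes and 67 (10.4%) above. Genes that fell in both steps, 782 tested, had a median of 0.43 at 18 cycles but of -0.24 against 10 cycles, with 371 (47.4%) above both whole oocytes and 59 (7.54%) below. Of all genes tested, 20.99% were above and 20.5% below. By edgeR, 1 gene of the first class (Synpo) was called lower and 2 of the second (Mrpl22 and Psmb1) higher, beside 0.0406% of all genes lower and 0.0811% higher, and at an unadjusted p under 0.05 there were 17 higher (2.63%) and 85 lower (13.2%) in the first and 185 higher (23.7%) and 17 lower (2.17%) in the second, beside 6.53% and 6.61% of all genes. Leaving out each of the 4 libraries in turn gave -0.33 to -0.20 for the first class and 0.32 to 0.57 for the second. At 14 cycles the medians were 0.29 and -0.22. In the per-library values, the class that fell lay at 0.55 and 0.35 in the 1/2 libraries, with the whole oocytes at -0.07 and 0.07, and the class that rose at -0.32 and -0.17, with the whole oocytes at -0.03 and 0.03. In both classes the 1/2 libraries lay outside the whole oocytes.

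The other classes were closer to all genes. Genes that fell and then rose, 743 tested, had a median of 0.04 at 18 cycles but of -0.74 against 10 cycles, with 153 (20.6%) above and 109 (14.7%) below. By edgeR 1 of these 743 genes, Cstf2t, was called lower, beside 0.0406% of all genes tested. Genes that rose and then fell, 753 tested, had a median of -0.17 at 18 cycles but of 1.20 against 10 cycles, with 101 (13.4%) above and 235 (31.2%) below. By edgeR 44 of them (5.84%) were higher and 86 (11.4%) lower at an unadjusted p under 0.05, beside 6.53% and 6.61% of all genes. Leaving out each of the 4 libraries in turn gave -0.13 to 0.17 for the first of these classes and -0.33 to -0.02 for the second. The stable genes that the study took from other oocytes across maturation numbered 147, of which 89 were tested. Their median was 0.24, or 0.21 with genes at 0 in a group set to the bound, and -0.11 against 10 cycles, with 29 (32.6%) above and 6 (6.74%) below and 11 higher (12.4%) and 5 lower (5.62%) at an unadjusted p under 0.05, where all genes tested gave 20.99%, 20.5%, 6.53% and 6.61%. When each of the 4 libraries was left out in turn, the median of the stable genes lay between 0.18 and 0.68. It was 0.68 without the first whole oocyte and 0.46 without the second. The median transcript length was 4050 bases in the class that rose in both steps, 2354 in the class that fell in both and 1749 for the stable genes. Length therefore differed between these lists, and its part in their medians was not tested.

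The ERCC scale gave negative medians for each of these lists. The highest was -1.25 for the proteasome subunits, and all lay below the -1 set by the dilution, but this depended on single libraries. Without the first whole oocyte the proteasome, ribosomal and oxidative phosphorylation lists were at -0.75, -0.57 and -0.68, egg coat and fertilization at -0.87 and the stable genes at -0.73, and without the second 1/2 library the proteasome list was at -0.91. The granulosa and cumulus markers were at -4.71, or -3.40 with genes at 0 in a group set to the bound, and at -1.39 without the first whole oocyte. Against 10 cycles the signs changed for several lists, with ribosomal proteins at 1.36, oxidative phosphorylation at 1.205 and the proteasome at 0.62. It was -1.52 for the class that fell in both steps, with 347 genes (44.4%) called lower, and -2.25 for the class that rose in both, with 575 (89.0%), beside 52.0% of all genes. For the lists of oocyte genes it was -1.63 for egg coat and fertilization, -1.85 for the subcortical maternal complex, -1.73 for transcription factors, -1.83 for the meiotic cell cycle and -2.13 for growth factors. For RNA metabolism it was -2.21 for deadenylation and decay, -2.01 for the exosome and -2.18 for storage, and for maternal chromatin it was -2.01. The mitochondrially encoded genes were at -2.33 and the stable genes at -1.61. The oocyte-defining genes were at -1.73, the theca, stroma and blood markers at -2.22, the class that fell and then rose at -1.94 and the class that rose and then fell at -2.12. Proteasome, ribosomal and oxidative phosphorylation genes, at -1.25, -1.37 and -1.37, were the 3 lists nearest to the dilution with all 4 libraries.

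In the test of 1/2 against 1/4 oocytes the fold change leaves out the whole oocytes, which still entered the gene filter, the size factors and the dispersion. By edgeR, 0 genes passed the threshold of 0.01, with 1842 at an unadjusted p under 0.05, while DESeq2 called 15 lower and 11 higher. The median log2 fold change was -0.02. The 1/2 libraries correlated with the 1/4 libraries at r from 0.942 to 0.956 across genes, similar to their correlation with the whole oocytes, and with the 1/8 libraries at 0.890 to 0.929. By list, the median of 1/2 against 1/4 was 0.54 for cytoplasmic ribosomal proteins, 0.49 for oxidative phosphorylation and 0.46 for proteasome subunits, and it was -0.73 for egg coat and fertilization. In 1/4 against whole oocytes, which shares the whole oocytes with the comparison described here, the medians of the first 3 lists were 0.05, -0.05 and 0.15, and in 1/8 against whole oocytes they were -0.17, -0.19 and 0.66. Leaving out each of the 4 libraries in turn gave 0.16 to 0.88 for ribosomal proteins, 0.25 to 0.80 for oxidative phosphorylation, 0.17 to 0.66 for the proteasome and -0.94 to -0.64 for egg coat and fertilization in 1/2 against 1/4. Without the first 1/2 library or the second, without the first 1/4 library or the second, edgeR called at most 1 gene in each direction between 1/2 and 1/4.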

How the data were processed

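The counts used here are raw read counts per gene and per ERCC molecule as the authors deposited them. Per the submitters' notes, reads were trimmed with cutadapt 2.5, checked with FastQC 0.11.8, aligned to mm10 with STAR 2.7.2a, sorted with SAMtools 1.9 and counted with HTSeq 0.9.1. No reads were realigned. The 12 tables hold 55573 genes and 92 ERCC molecules, and 55480 genes were matched by Ensembl ID to GENCODE M21 (GRCm38), from which symbols, positions, the length and GC content of the longest transcript, and exon overlaps were taken. Between 7.22% and 11.2% of reads were listed as on no feature.

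The methods give HTSeq at its default settings, which count by strand and leave out reads that fall on more than 1 gene, while the submitters' notes give no settings. The deposited counts of genes inside exons of a gene on the same strand departed from this. Of 87 genes inside exons of a gene on the other strand, 78 had counts, with a median count per base 0.455 times that of the host. Of 95 on the same strand, 95 had counts, at 1.01 times. Counts of genes that share exons are therefore uncertain, and shared exons are noted for the named genes only.

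Size factors were median ratios over genes for composition and over ERCC molecules for amount. edgeR 4.0.16 (quasi-likelihood fit of 4 groups, 8 libraries at 18 cycles, Benjamini-Hochberg adjustment, threshold 0.01) in R 4.3.3 was the test, with limma 3.58.1 as its base and DESeq2 1.42.0 as the alternative. Python 3.11.15 with pandas 2.3.3, numpy 2.4.6 and scipy 1.17.1 made the summaries. Shares have 95% Wilson intervals, and a count of 0 was given a bound of 3 counts per library.

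Genes were named by a rule: every gene past the threshold by the median ratio; the 10 genes with the highest mean CPM; in each list the 3 members with the highest mean CPM and any past the threshold; the 5 largest rises and 5 largest falls among genes averaging 50 or more normalized counts whose groups did not overlap; and the ERCC molecules with the most counts and with the largest and smallest difference. A few genes that the rule names are not printed. The members of the groups and the gene lists were chosen with earlier results of these data known. The lists were egg coat and fertilization, oocyte growth factors, subcortical maternal complex, transcription factors, meiotic cell cycle, deadenylation and decay, RNA exosome, mRNA storage, maternal chromatin, cytoplasmic ribosomal proteins, mitochondrially encoded proteins, nuclear oxidative phosphorylation, proteasome, granulosa and cumulus markers, theca, stroma and blood markers, oocyte-defining genes, and the study's 4 progression classes and stable genes.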

Additional observations from a re-analysis of the deposited data

How the results depend on the processing

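Counts of genes past the threshold, the median log2 fold changes, gene counts per ERCC count and the named genes were recomputed with other choices. The length and GC bins, detection, correlations and replicate spread were not. The libraries in a fit also set which genes were tested, so the fits against 10 or 14 cycles held 18041 genes and the fit of 4 libraries 12712, in place of 14788. On the composition scale the counts of genes past the threshold, 6 lower and 12 higher, depended on the choices. They were 49 and 103 with DESeq2, 120 and 98 with no filter on low counts, 16 and 34 in a fit of all 12 libraries, and 3 and 9 among genes that share no exon. With the replicate block they were 36 and 37. By edgeR with TMM scaling they were 0 and 1, with 906 and 1025 genes at an unadjusted p under 0.05. With only the 4 libraries compared they were 0 and 0 by edgeR, with 846 and 817 at an unadjusted p under 0.05. Requiring 10 counts in each library gave 5 and 14, and size factors from genes averaging 100 or more counts gave 5 and 12. With the whole oocytes at 10 cycles as the reference, 1242 were lower and 1678 higher, and with those at 14 cycles 1265 and 1704. Leaving out each replicate in turn gave 0 to 29 lower and 0 to 24 higher. Between 1/2 and 1/4, where edgeR called 0 with 927 lower and 915 higher at an unadjusted p under 0.05, DESeq2 called 15 lower and 11 higher. The replicate block there gave 12 and 2, and leaving out each replicate in turn gave 0 to 1 in each direction.

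On the ERCC scale 7697 genes were lower. The count was 5053 with only the 4 libraries compared, 384 against 10 cycles and 466 against 14 cycles, and between 7121 and 9176 under the other choices. Higher genes numbered 1181 against 10 cycles and 1161 against 14 cycles, and 0 by edgeR and by DESeq2 under the other choices, with at most 11 at an unadjusted p under 0.05. Leaving out each replicate in turn gave 1930 to 8908 lower and 0 to 0 higher. The median log2 fold change was -0.12 against 10 cycles and -0.16 against 14 cycles over the 18041 genes of those fits. Over the 14788 genes of the main fit these medians were 0.099 and 0.069, so their sign depended on the genes included. The median was -2.34 to -1.39 when each replicate was left out. Gene counts per ERCC count in the 1/2 libraries were 113.9% and 111.0% of those in whole oocytes at 10 and 14 cycles, and 20.75% to 33.56% when each replicate was left out. The cause was not tested.

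Of 75 named genes, 31 changed sign against 10 cycles and 32 against 14 cycles. Of these, 19 and 22 passed the threshold under at least 1 of the references compared. A sign changed for 1 gene each with TMM, with 10 counts required in each library and with the replicate block, and for 5 to 12 genes when a replicate was left out, in none of these cases for a gene past the threshold under either choice. Against 10 and 14 cycles the log2 fold changes of the 19 and 22 genes were as follows. Among called genes, Tex30 was at -0.084 against 10 cycles, Amn1 at -0.38 and -0.62, Lrrc47 at 0.16 and 0.76, Pdxp at 1.10 and 1.25, Gm43909 at 0.53 and 0.36, and Trim28 at 0.64 against 14 cycles. Among abundant oocyte genes, Parp12 was at 2.15 and 2.10, Cd164l2 at 2.15 and 1.97, Zp1 at -0.86 and -1.07, Gdf9 at -0.91 and -1.01, and Bub1b at -0.97 and -0.96. Among genes of RNA metabolism and the cell cycle, Cnot11 was at 1.55 and 1.86, Exosc4 at 2.11 and 1.73, and Exosc5 at 2.41 and 2.23, with Cdc25a at 1.72 and Upf1 at 1.26 against 14 cycles. Among the other genes, Rpl8 was at 1.57 and 1.62, mt-Cytb at -2.08 and -2.08, Cox4i1 at 1.57 and 1.62, Atp5e at 2.43 and 2.38, Serpine2 at 0.83 and 0.89, and Pecam1 at -1.68 and -1.67, with Cyp19a1 at -1.62 against 14 cycles. The cause was not tested.

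Where a replicate was left out, the lone library of its group was assumed to vary like the other groups. Whether replicates with the same number were paired was checked across genes: the log2 differences between the first and second replicate correlated at 0.02 between 1/2 and whole oocytes and at -0.03 between 1/2 and 1/4, and at 0.09 and -0.09 for genes with 10 or more counts. The fit of all 12 libraries, the restriction to genes that share no exon and the alternatives for list medians, on the composition and ERCC scales and for 1/2 against 1/4, were chosen after seeing the data. Depth limits the genes with few counts, which include most markers of granulosa cells.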
